A study of Mus musculus with 9 samples.

Results

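The genes described here code for 9 proteins of the sarcomere's Z-disc and M-band: Myom2, Myom1, Ttn, Myoz2, Tcap, Csrp3, Actn2, Ldb3 and Nebl. They were followed in mouse embryonic stem cell derived cardiomyocytes over 30 days of culture. Every probe set annotated to 1 of these genes was taken, whatever its signal, which gave 21 probe sets among the 45101 on the array. A probe set is a group of short probes that together report the transcripts of 1 gene, and the array covered 18193 named genes. Myom2 had 4 probe sets, Ldb3 and Nebl had 3 each and Ttn had 6, and the other 5 genes had 1 each. Where a gene had several, the one with the highest mean signal over the 9 arrays is called its brightest probe set.

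The cells came from the synp line, a derivative of R1 embryonic stem cells of 129X1 x 129S1 background, and all arrays share that line. Its cells carry a puromycin resistance gene (PAC) under the Ncx1 promoter. Differentiation in every culture used bFGF, FGF10, VEGF, BMP4 and Activin A. Puromycin was added to every culture from day 7, and it removes cells that do not drive that promoter. RNA was measured at day 10, day 20 and day 30 of differentiation on 3 arrays each, 9 in all. The series sets out to assess how far such cardiomyocytes mature in culture. The labels number the replicates but do not say whether they were separate differentiations, so the p-values below reflect only how much these arrays vary within a day, and that variation may be technical. It is a single line under 1 drug selection, with no heart tissue among the samples analysed here.

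The sarcomere is the contractile unit of striated muscle. Actin filaments are anchored and cross-linked at its ends, the Z-discs, where alpha-actinin is the main cross-linker and many signalling proteins dock. Myosin filaments are cross-linked at its centre, the M-band, by proteins of the myomesin family. Titin runs from the Z-disc to the M-band and ties both lattices together. In developing heart muscle the Z-disc takes shape early and the M-band is completed late, and M-band proteins are often followed as a mark of sarcomere maturity.

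The cardiomyocyte label was checked first. Tnnt2, cardiac troponin T, averaged 13.42, 13.14 and 13.54 on the log2 scale at days 10, 20 and 30, and Actc1, cardiac actin, averaged 13.84, 13.76 and 13.86. Both were near the top of the range, which ended at 14.52. Some other cardiomyocyte identity genes were dimmer, such as Tbx5 at 5.74 to 7.70 and Fgf12 at 4.35 to 5.49. Myod1, Myf5 and Myog, which define skeletal muscle cells, stayed at 4.78 to 5.18, 2.95 to 3.24 and 4.63 to 4.94, and the skeletal list of 16 genes averaged 4.42 to 4.77 on each of the 9 arrays. Within the skeletal list, Mybpc2 reached 7.32 and Pvalb 7.46 on their highest arrays. Day 10 replicate 3 stood apart from the other day 10 arrays. The lowest correlation between replicates, across all probe sets, was 0.966 at day 10, against 0.986 at day 20 and 0.984 at day 30. That array had the highest of the 3 day 10 signals in 18 of the 21 probe sets described here, and in 39.5% of all probe sets. Its excess over the mean of the other 2 had a median of 1.16 over the 21 and of 0.01 over all. Results are therefore also given without it. Where it was the highest, leaving it out lowers the day 10 mean and raises the later differences by construction. It also narrows the day 10 range, so calls made only without it are not independent evidence of a change.

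Promoter sequences in the reference held a start site for 7 of the 9 genes, 12 start sites in all, each with 250 bases before and 50 after the start. Myom2 and Tcap had no entry. The sequences are from RefSeq on GRCm38.p6, read 5′ to 3′ on the gene's strand. On that build Myom2 lies at chr8:15057653-15133420, Tcap at chr11:98383811-98384953, Myoz2 at chr3:123006206-123035003, Ldb3 at chr14:34526699-34590314 and Nebl at chr2:17342673-17734949. Sequences are shown for Myoz2, the only single-probe-set gene with a promoter entry that rose, and for Ldb3 and Nebl, which had both called and uncalled probe sets. Capitals mark matches, on either strand, to the E-box CANNTG, the MCAT element CATTCC, the TATA box TATAAA, the CArG box or the MEF2 site, and none of the matches overlapped. The lines below are Myoz2 at chr3:123034938-123035237, Ldb3 at chr14:34588632-34588931, and 2 of the Nebl starts, at chr2:17731085-17731384 and chr2:17670116-17670415, all on the minus strand.
Myoz2 promoter: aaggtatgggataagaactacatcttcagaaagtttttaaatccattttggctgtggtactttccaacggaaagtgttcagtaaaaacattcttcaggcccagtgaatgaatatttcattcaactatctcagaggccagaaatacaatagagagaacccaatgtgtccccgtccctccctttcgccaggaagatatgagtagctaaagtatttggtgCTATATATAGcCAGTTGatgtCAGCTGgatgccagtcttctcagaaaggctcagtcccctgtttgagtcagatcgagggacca
Ldb3 promoter: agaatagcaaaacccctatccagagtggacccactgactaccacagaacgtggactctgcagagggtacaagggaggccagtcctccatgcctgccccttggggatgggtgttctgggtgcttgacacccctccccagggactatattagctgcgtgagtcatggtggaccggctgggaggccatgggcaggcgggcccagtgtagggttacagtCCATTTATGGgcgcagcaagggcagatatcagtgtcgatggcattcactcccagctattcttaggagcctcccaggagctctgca
Nebl promoter, upstream start: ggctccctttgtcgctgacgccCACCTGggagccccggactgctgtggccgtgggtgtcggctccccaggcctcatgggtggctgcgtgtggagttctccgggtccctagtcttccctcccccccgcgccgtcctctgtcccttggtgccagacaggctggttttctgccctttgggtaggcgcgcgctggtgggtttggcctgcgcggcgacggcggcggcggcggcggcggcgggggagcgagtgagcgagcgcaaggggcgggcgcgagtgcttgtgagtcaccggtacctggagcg
Nebl promoter, downstream start: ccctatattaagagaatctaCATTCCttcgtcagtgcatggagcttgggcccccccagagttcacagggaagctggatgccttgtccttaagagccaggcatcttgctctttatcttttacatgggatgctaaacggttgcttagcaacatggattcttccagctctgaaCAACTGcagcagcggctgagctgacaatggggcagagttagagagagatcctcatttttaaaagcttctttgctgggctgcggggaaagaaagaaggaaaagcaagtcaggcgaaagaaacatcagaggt
In the Myoz2 sequence a MEF2 site began 33 bases before the start, followed by E-boxes that began 22 and 12 bases before it. A CArG box began 35 bases before the Ldb3 start shown, and the other Ldb3 start overlaps it and holds the same match. The upstream Nebl start shown lay in 72.0% G and C with 32 CG pairs, against medians of 52.7% and 7 over all 32851 promoters. The downstream one shown held an MCAT element and an E-box. Further downstream lay the Nebl starts at chr2:17526081-17526380 and chr2:17462807-17463106, which are not shown. The CArG box of Nebl was in the latter. A MEF2 site was found in 2 of the 12 sequences, those of Myoz2 and Ttn, and in 1.86% of all promoters, and a CArG box in 4 of the 12, of Ldb3, Myom1 and Nebl, and in 1.63% of all. E-boxes were in 9 of the 12 and in 72.3% of all, MCAT elements in 2 and in 14.7%, and the TATA box in 0 and in 13.6%. A match describes these letters only. No file here ties a probe set to 1 of the Nebl or Ldb3 starts.

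A probe set of 5 of the 9 genes changed between days: Myom2, Myoz2 and Tcap rose, 1 Nebl probe set fell, and 1 Ldb3 probe set rose over the whole span. A probe set was called changed at an adjusted p under 0.05 in limma, a linear model fitted to all probe sets, with the Benjamini-Hochberg adjustment over the 45037 that are not controls. At day 20 relative to day 10, 6 of the 21 probe sets were called, against 9.02% of all probe sets: 3 of Myom2, those of Myoz2 and Tcap, which rose, and 1 of Nebl, which fell. Of all probe sets 4.51% rose and 4.51% fell. At day 30 relative to day 20, 0 of the 21 were called by limma, 1 of them at an unadjusted p under 0.05, and 0.135% of all probe sets were called, 0.129% higher and 0.00666% lower. With the replicate number as a block, 0 of the 21 were called at that step, again with 1 at an unadjusted p under 0.05, and 2 of all probe sets (0.00444%), against 61 without the block. For the later step minus the earlier one, 0 of the 21 were called by limma, with 6 at an unadjusted p under 0.05, against 0.133% of all, 0.04% higher and 0.0933% lower. At day 30 relative to day 10, 7 were called, 6 higher and 1 lower, against 15.1% of all probe sets, 7.4% higher and 7.73% lower. The test across all 3 days called the same number, 7, against 11.9%. Most of the 21 were bright, and 19 lay above the median mean signal. With only probe sets above that median tested, 8 of the 19 were called at day 20, against 17.8% of all those tested. At day 30 relative to day 10 it was 7 of the 19, against 26%. The 3 Myom2 calls are of 1 gene. With the brightest probe set alone, 3 of the 9 genes rose by day 20 and 3 by day 30. Of all genes 6.31% and 10.3% rose, and 11.6% and 19.2% changed in either direction. The day 20 arrays were all above the day 10 arrays in 6 of the 21 and all below in 2, against 11.7% and 16.4% of all probe sets, and the day 30 arrays in 7 and 1, against 13.5% and 18.5%. The median difference between day 30 and day 10 was 0.39 over the 9 brightest probe sets and 0.17 over the 21, against -0.05 over all. Without day 10 replicate 3, 10 of the 21 were called at day 20 and 9 at day 30 relative to day 10, against 18.9% and 20.3% of all. In total RNA from a culture, a change in the share of a cell type cannot be told apart from a change in RNA per cell.

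Markers of other cells moved over the same days. Of all genes, 10.3% rose and 8.91% fell at day 30 relative to day 10, and 6.31% rose at day 20. Of 12 fibroblast and matrix genes, 10 rose at day 30 relative to day 10, with a median of 4.95. At day 20, 9 of them rose, with a median of 3.72. The mean of the list was 6.87 to 7.36 on the day 10 arrays, 10.41 to 11.44 at day 20 and 11.93 to 12.03 at day 30. Of 11 cell cycle genes, 3 fell at day 30 relative to day 10, with a median of -2.18. All 11 fell without day 10 replicate 3, where 13.3% of all genes fell. Of 11 measured cardiomyocyte identity genes, 2 rose and 0 fell, with a median of 0.41, and the median deviation of the list stayed between -0.21 and 0.22 on all 9 arrays. The smooth muscle list of 10 had 2 higher, 2 lower and a median of 0.71. The skeletal list of 16 had 0 called and a median of -0.06. The endothelial list of 10 had 1 higher and 1 lower, near the shares of all genes, and a median of -0.38. Without day 10 replicate 3 the endothelial list had 2 higher, 1 lower and a median of 0.07. The part of these lists in the changes of the 9 genes was not tested.

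**Figure D1:**
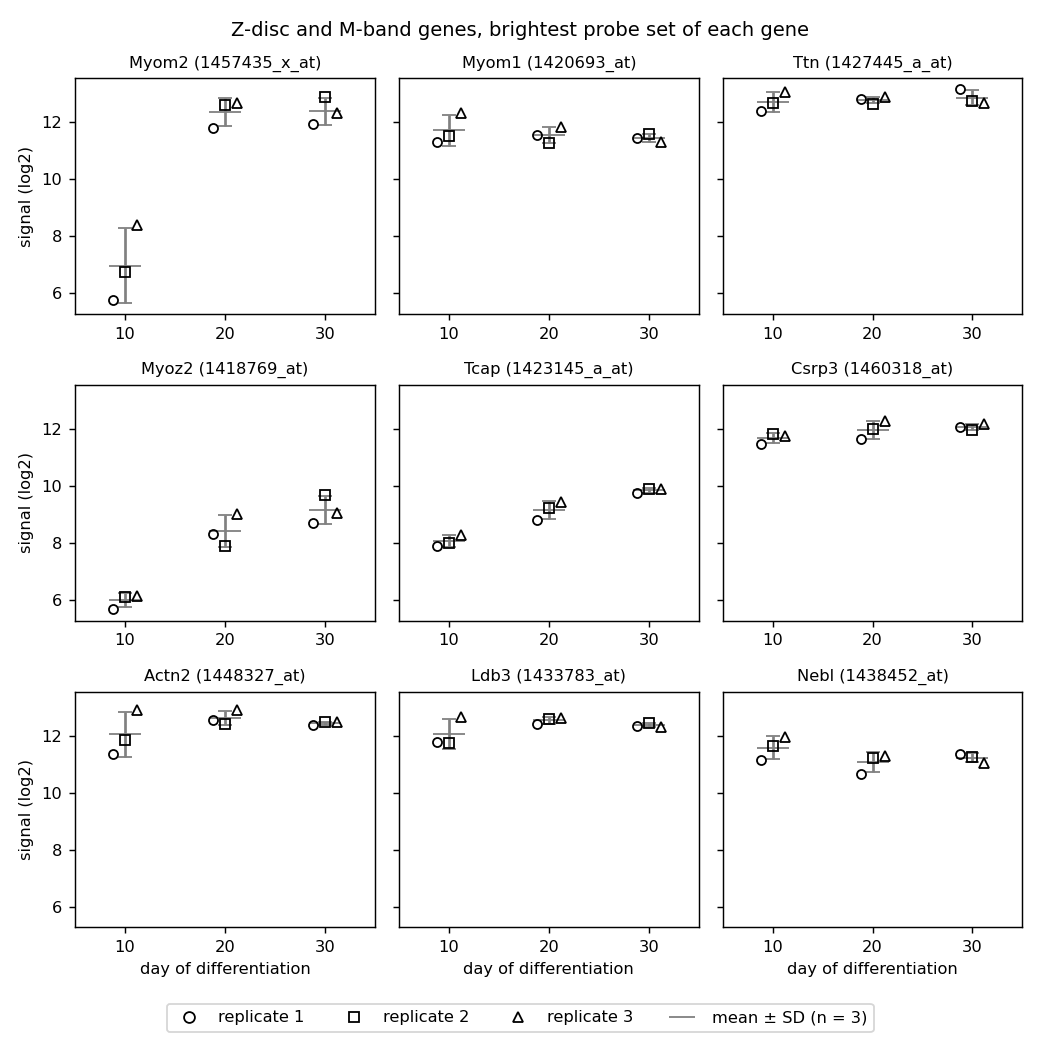
Log2 signal (vertical axis) of the brightest probe set of each gene against day of differentiation, 1 symbol per array by replicate number, with the mean and SD of 3 arrays in grey. Myom2 lies at 5.77 to 8.40 at day 10 and at 11.80 or above on every later array, Myoz2 and Tcap are also lowest at day 10, and the triangle of day 10 replicate 3 is the top symbol at day 10 for every gene but Csrp3.

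Myom2 codes for M-protein, a member of the myomesin family that links myosin filaments at the M-band. It rose more than any other of the 9 genes. Its brightest probe set, 1457435_x_at, read 5.77, 6.77 and 8.40 on the day 10 arrays, 11.80, 12.63 and 12.67 at day 20, and 11.94, 12.88 and 12.35 at day 30. The day 10 arrays lay far below all others and spread over more than 2 log2 units, while the day 20 and day 30 arrays overlapped. The mean was 12.37 ± 0.49 at day 20, against 6.98 ± 1.32 at day 10 (SD, n = 3 each), a log2 difference of 5.39 (SE 0.60, 95% interval 4.0 to 6.77, 41.8-fold, limma adjusted p = 0.0028). At day 30 it was 12.39 ± 0.47, a difference from day 20 of 0.03 with an interval of -1.36 to 1.41. The test of the later step minus the earlier one gave -5.36 (SE 1.05), with an unadjusted p of 0.00085 and a limma adjusted p of 0.11, so a slowing of the rise did not pass the threshold.

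Further Myom2 probe sets read the same rise, apart from a dim one. 1438175_x_at read 5.25, 5.97 and 7.68 at day 10, 11.15, 12.03 and 12.03 at day 20, and 11.25, 12.32 and 11.63 at day 30. 1450917_at read 4.18, 5.18 and 6.61, then 10.04, 11.27 and 11.38, then 10.30, 11.39 and 10.91 on the same days. Their day 20 differences from day 10 were 5.44 (43.3-fold, limma adjusted p = 0.0025) and 5.57 (limma adjusted p = 0.0027). No fold is given for the second, since its lowest day 10 array lay under the lower quartile of all probe sets, 4.29, and no background value was used. On all 3 of these probe sets day 10 replicate 3 was the highest and replicate 1 the lowest of the day 10 arrays. Without day 10 replicate 3, the rises at day 20 were 6.09 (limma adjusted p = 0.0004), 6.13 and 6.22, in the order given, and the later step minus the earlier one passed for all 3, with 6 of the 21 probe sets passing against 6.45% of all. The dim probe set, 1438372_at, read 4.06 to 4.55 on every array and had a mean just under that quartile (day 20 minus day 10 0.12, limma adjusted p = 0.6). The letter x in a probe set's name marks probes similar to other sequences, but 1450917_at carries no such mark.

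Myom1 codes for myomesin, the constant cross-linker of the M-band, which also binds titin. Its probe set did not pass in any comparison. It read 11.30, 11.53 and 12.34 at day 10, 11.57, 11.27 and 11.85 at day 20, and 11.46, 11.60 and 11.32 at day 30. The days overlapped, and the top value was day 10 replicate 3. The mean was 11.46 ± 0.14 at day 30 and 11.72 ± 0.55 at day 10 (SD, n = 3 each), a difference of -0.26 (SE 0.27, 95% interval -0.87 to 0.35, limma adjusted p = 0.58), and of 0.05 without day 10 replicate 3. The log2 difference between Myom2 and Myom1 on the same array was 5.55 larger at day 20 and 5.67 larger at day 30 than at day 10. This is 1 of 5 gene pairs compared by an exact permutation test over the 280 ways to split 9 arrays into 3 days (two-sided), and its p of 0.0286 became 0.071 after adjustment over the 5 pairs. Without day 10 replicate 3 the adjusted exact permutation p was 0.048, and it was also under the threshold, at 0.036 to 0.048, when replicate 2 or 3 of day 20 or replicate 1 of day 30 was left out. All 3 day 10 arrays lay at -5.52 to -3.94 and all later arrays at 0.23 to 1.37. Splits that only reshuffle days 20 and 30 score much alike for such a pattern, which limits how low this permutation p can go.

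Titin, from Ttn, spans the sarcomere from Z-disc to M-band and is the scaffold on which both are built. None of its 6 probe sets was called in any comparison between days. The brightest, 1427445_a_at, read 12.39, 12.67 and 13.08 at day 10, 12.82, 12.66 and 12.88 at day 20, and 13.17, 12.75 and 12.69 at day 30. The 3 days overlapped throughout. The mean at day 30 was 12.87 ± 0.26, against 12.71 ± 0.35 at day 10 (SD, n = 3 each), a difference of 0.16 with an interval of -0.28 to 0.60 (limma adjusted p = 0.65), so a doubling of this signal lies outside the interval. The other 5 differed by 0.35 (1427446_s_at), -0.08 (1444083_at), -0.70 (1444638_at), 0.14 (1431928_at) and -0.72 (1446450_at) between day 30 and day 10, and by 0.68, 0.43, -0.16, 0.89 and -0.30 in the same order without day 10 replicate 3.

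Among the dimmer Ttn probe sets, 1431928_at read 8.20, 7.73 and 10.20 at day 10, 9.02, 9.66 and 9.57 at day 20, and 8.47, 9.43 and 8.66 at day 30. Its highest array of all was day 10 replicate 3. Without that array this probe set was 1.45 higher at day 20 than at day 10 (limma adjusted p = 0.02). It was not called at day 30. Without day 10 replicate 2 the day 20 difference was 0.21. 1446450_at, at the 38.5th percentile of all probe sets by mean signal, was lower on every day 30 array than on every day 20 array, by 0.47 on average, a separation that 9.51% of all probe sets share in that direction. The letter s in 1427446_s_at marks probes shared with other transcripts, and the letter a in 1427445_a_at marks probes common to several transcripts of the gene.

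Myoz2 codes for calsarcin, a Z-disc protein that binds alpha-actinin and the phosphatase calcineurin. Its probe set read 5.70, 6.12 and 6.15 at day 10, 8.32, 7.90 and 9.03 at day 20, and 8.70, 9.68 and 9.06 at day 30. Every later array was above every day 10 array, and days 20 and 30 overlapped. The mean was 8.42 ± 0.57 at day 20, against 5.99 ± 0.25 at day 10 (SD, n = 3 each), a difference of 2.43 (SE 0.33, 5.39-fold, limma adjusted p = 0.0056). At day 30 it was 9.15 ± 0.49, which is 3.16 above day 10 (SE 0.33, 8.93-fold, limma adjusted p = 0.00098) and 0.73 above day 20 (95% interval -0.02 to 1.48, limma adjusted p = 0.56). Myoz1, its relative of fast skeletal muscle, differed by -0.81 between day 30 and day 10 (limma adjusted p = 0.12). The difference between Myoz2 and Myoz1 on the same array was 2.72 larger at day 20 and 3.97 larger at day 30 than at day 10, with no overlap between any of the days. It was the only 1 of the 5 pairs to pass, at an exact permutation p of 0.00357, the smallest the design allows, and 0.018 after adjustment. With the replicate number as a block the adjusted exact permutation p was 0.14.

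Tcap codes for telethonin, which caps the end of titin in the Z-disc. It was the only gene of the 9 whose 3 days followed each other with no overlap. Its arrays read 7.91, 8.01 and 8.29 at day 10, 8.80, 9.22 and 9.45 at day 20, and 9.74, 9.91 and 9.90 at day 30. The mean was 9.16 ± 0.33 at day 20, against 8.07 ± 0.20 at day 10 (SD, n = 3 each), a difference of 1.09 (SE 0.17, 2.12-fold, limma adjusted p = 0.0098). At day 30 it was 9.85 ± 0.10, which is 1.78 above day 10 (3.44-fold, limma adjusted p = 0.00072). The step between day 20 and day 30 was 0.70 (95% interval 0.30 to 1.09) with an unadjusted p of 0.0037, and it did not pass over all probe sets (limma adjusted p = 0.24). A complete separation in that direction at that step was seen in 9.52% of all probe sets.

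Csrp3 codes for muscle LIM protein, a Z-disc protein tied to stretch sensing. It read 11.49, 11.81 and 11.77 at day 10, 11.66, 11.99 and 12.27 at day 20, and 12.06, 11.98 and 12.19 at day 30. The day 30 arrays were all above the day 10 arrays, as in 13.5% of all probe sets, and day 20 overlapped both. The mean was 12.08 ± 0.11 at day 30, against 11.69 ± 0.17 at day 10 (SD, n = 3 each), a difference of 0.39 (SE 0.16, 95% interval 0.02 to 0.76), and the call was not made (limma adjusted p = 0.15). Csrp3 minus its relative Csrp2 moved by 0.56 over the same days (exact permutation p = 0.0786, adjusted 0.13).

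Actn2 codes for the alpha-actinin of cardiac muscle, which cross-links actin filaments in the Z-disc. It read 11.36, 11.86 and 12.91 at day 10, 12.55, 12.42 and 12.89 at day 20, and 12.37, 12.46 and 12.46 at day 30. Day 10 replicate 3 was the highest of the 9 arrays, while the other day 10 arrays were the lowest. The mean was 12.62 ± 0.24 at day 20, against 12.04 ± 0.79 at day 10 (SD, n = 3 each), a difference of 0.58 that was not called (limma adjusted p = 0.35). The spread at day 30 was 0.05. With that array left out the difference was 1.01 at day 20 (SE 0.18, limma adjusted p = 0.0094). At day 30 it was then 0.83 (limma adjusted p = 0.018), so the call rests on that array. Without day 10 replicate 1 the differences were 0.23 at day 20 and 0.05 at day 30. Actn2 minus Actn1, the non-muscle form, moved by 1.14 between day 30 and day 10 (exact permutation p = 0.107, adjusted 0.13). Without day 10 replicate 3 it moved by 1.65 (adjusted exact permutation p = 0.048). Without day 10 replicate 1 it moved by 0.53 (adjusted exact permutation p = 0.3).

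Ldb3 codes for a PDZ and LIM domain protein, also called Cypher or ZASP, that binds alpha-actinin and steadies the Z-disc. Of its 3 probe sets, 1 rose. The brightest, 1433783_at, read 11.78, 11.73 and 12.67 at day 10, 12.41, 12.58 and 12.63 at day 20, and 12.34, 12.45 and 12.31 at day 30. Apart from day 10 replicate 3, again the top array, the day 10 values were the lowest. The difference of 0.30 between day 30 and day 10 had an interval of -0.22 to 0.83 (limma adjusted p = 0.43). Without day 10 replicate 3 it was 0.61 (limma adjusted p = 0.0061). Without day 10 replicate 1 or 2 it was 0.16 or 0.14 (limma adjusted p = 0.73 or 0.78). 1416752_at read 8.40, 8.35 and 9.61 at day 10, 9.90, 9.86 and 10.41 at day 20, and 10.27, 10.33 and 10.64 at day 30. All later arrays were above all day 10 arrays. Its mean was 10.41 ± 0.20 at day 30, against 8.79 ± 0.72 at day 10 (SD, n = 3 each), a rise of 1.63 (SE 0.33, 3.09-fold, limma adjusted p = 0.015). That call was lost without day 30 replicate 3 (1.51, limma adjusted p = 0.055), and the day 20 difference of 1.27 just missed the threshold (limma adjusted p = 0.051). Its rises without day 10 replicate 3 were 1.68 at day 20 and 2.04 at day 30 (limma adjusted p = 0.0019 and 0.00079). Without day 10 replicate 2 they were 1.05 and 1.41 (limma adjusted p = 0.15 and 0.049).

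The third Ldb3 probe set, 1451999_at, read 9.34, 9.34 and 11.15 at day 10, 10.32, 9.89 and 10.18 at day 20, and 10.07, 9.17 and 9.73 at day 30. It was not called at any step, and its top array was day 10 replicate 3. Without that array it differed from day 10 by 0.79 at day 20 and 0.31 at day 30, against 0.19 and -0.29 with it, and was still not called (limma adjusted p = 0.069 and 0.46). The signal of 1416752_at relative to 1433783_at on the same array was 0.79 larger at day 20 and 1.33 larger at day 30 than at day 10, with no overlap between days. Among 12 such comparisons of a probe set with its gene's brightest, a family added after the values had been seen, this was the only one to pass (exact permutation p = 0.00357, adjusted 0.043). Levels of different probe sets are not comparable, and only the change of such a difference between days is read here.

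Nebl codes for nebulette, the cardiac relative of nebulin, which binds actin filaments at the Z-disc. It was the only gene of the 9 with a probe set that fell. Which transcripts of the gene that probe set reads was not tested, and the brightest Nebl probe set was not called. 1439897_at read 9.31, 9.07 and 9.0 at day 10, 6.19, 6.51 and 7.08 at day 20, and 6.83, 6.25 and 6.96 at day 30. The day 10 arrays lay close together and far above all others, and for this probe set replicate 3 was the lowest of them. The mean was 6.60 ± 0.45 at day 20, against 9.13 ± 0.17 at day 10 (SD, n = 3 each), a difference of -2.53 (SE 0.26, 5.79-fold lower, limma adjusted p = 0.0018). Day 30 was 2.45 below day 10 (5.46-fold lower, limma adjusted p = 0.001) and 0.08 above day 20. The later step minus the earlier one was 2.62, at an unadjusted p of 0.00033 and a limma adjusted p of 0.076.

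The brightest Nebl probe set, 1438452_at, read 11.15, 11.65 and 11.94 at day 10, 10.66, 11.22 and 11.30 at day 20, and 11.37, 11.25 and 11.05 at day 30. Its days overlapped, and the day 30 difference of -0.36 from day 10 had an interval of -0.89 to 0.18 (limma adjusted p = 0.36). The third, 1451846_at, read 6.94, 7.74 and 8.50 at day 10, 6.06, 6.28 and 6.89 at day 20, and 7.08, 6.55 and 6.52 at day 30. Day 20 lay below day 10 on every array, with a difference of -1.32 at a limma adjusted p of 0.073, of -1.71 at 0.03 without day 10 replicate 1 and of -0.93 at 0.092 without day 10 replicate 3. Day 30 differed from day 10 by -1.01 (limma adjusted p = 0.12), by -1.41 without day 10 replicate 1 (limma adjusted p = 0.034) and by -0.63 without day 10 replicate 3 (limma adjusted p = 0.24). The mean of the 3 Nebl probe sets was 1.46 lower at day 20 and 1.27 lower at day 30 than at day 10. Its limma adjusted p was 0.0078 at day 20 and 0.0077 at day 30. With all 9 arrays, 1439897_at was the only 1 of the 3 called by itself, so the mean does not show a fall shared by all. Relative to the brightest probe set, 1439897_at was 2.01 lower at day 20 than at day 10, with no overlap between day 10 and later arrays. That comparison, with 3 others of the 12, reached an adjusted p of 0.077 (exact permutation p = 0.0321 before adjustment). The test scores all 3 days at once. Where only day 10 stands apart, splits that reshuffle days 20 and 30 score much alike, which limits how low p can go. Whether the Nebl probe sets differed over days is therefore not decided by it. In the fifth gene pair, Nebl minus nebulin (Neb), Neb read 3.12 to 3.89, at the 3.79th percentile of all probe sets, so that difference is not read.

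**Figure D2:**
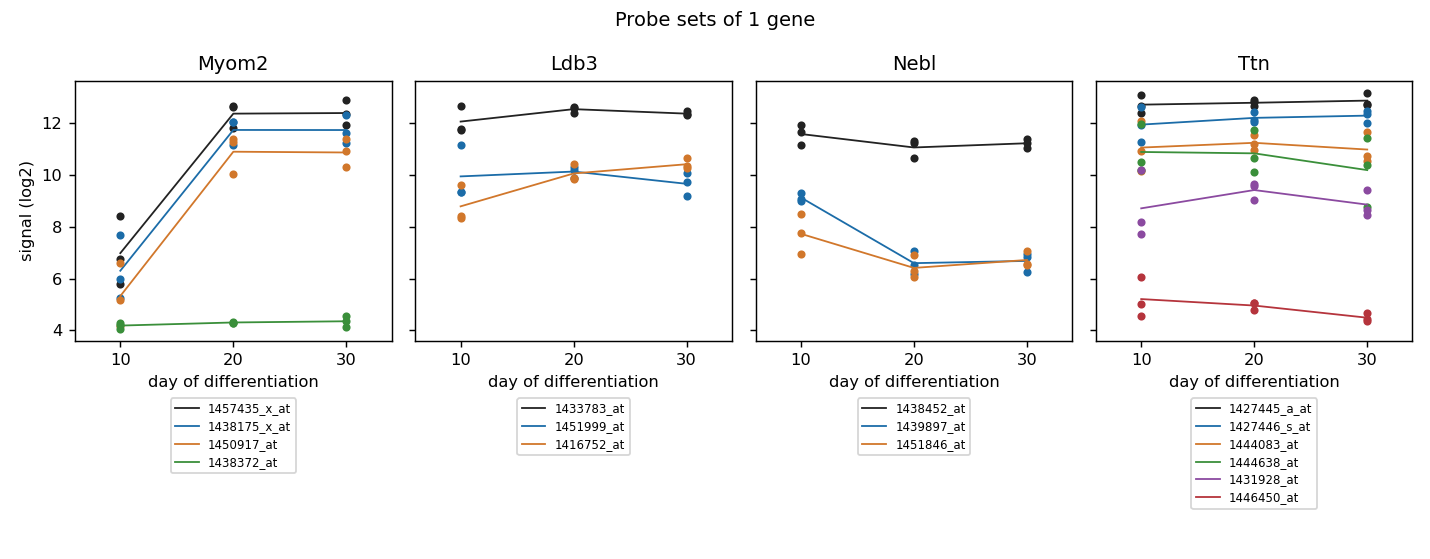
Log2 signal (vertical axis) against day for the genes with several probe sets, 1 colour per probe set, points for the 3 arrays of a day and lines through the means. In Myom2 the upper 3 lines climb by more than 5 between day 10 and day 20 while the lowest stays near 4.3, in Ldb3 the 1416752_at line climbs by 1.63 over the series, and in Nebl the 1439897_at line fell by 2.53 at the first step.

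**Figure D3:**
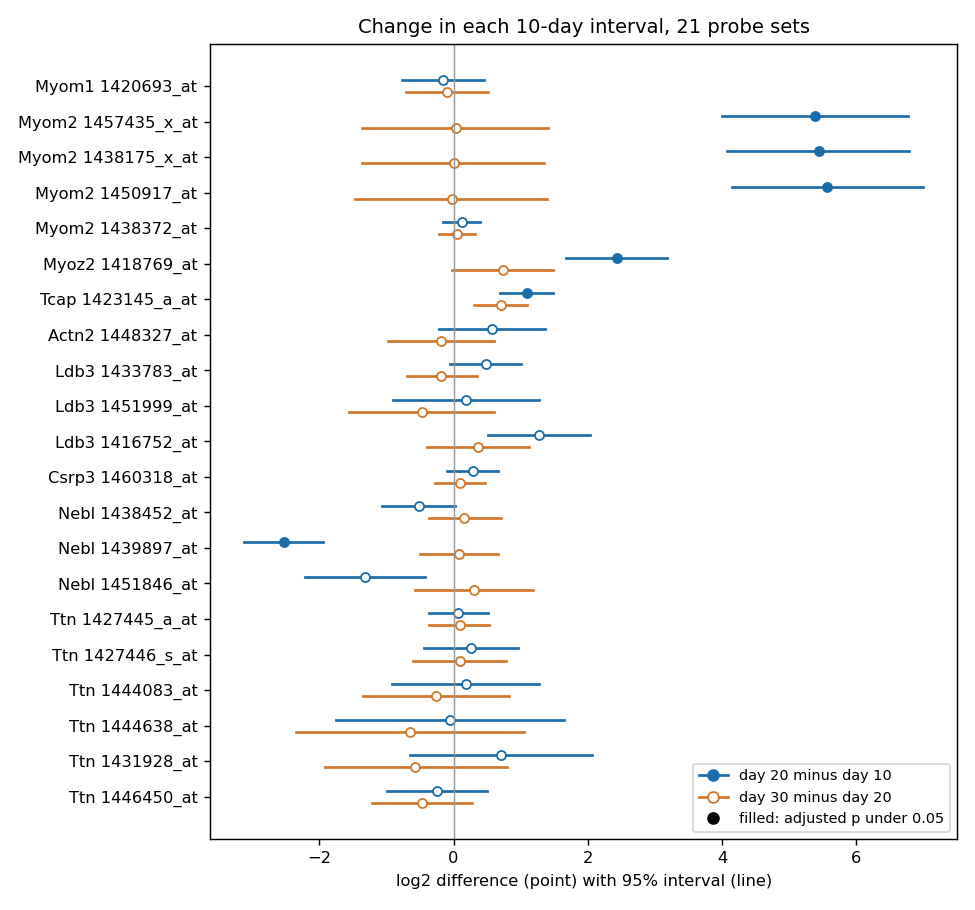
Log2 difference (horizontal axis) of the 21 probe sets in each 10-day step, with its 95% interval as a line and filled points at a limma adjusted p under 0.05. The 6 filled points all belong to day 20 minus day 10, and the day 30 minus day 20 points lie between -0.65 and 0.73.

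The high signals of day 10 replicate 3 ran through most of the 9 genes. Its signal minus the mean of the other 2 day 10 arrays was 2.12 for the brightest Myom2 probe set, 2.24 for Ttn 1431928_at, 1.80 for Ldb3 1451999_at, 1.30 for Actn2 and 0.93 for Myom1. The 3 exceptions, where that array was not the highest, were the dim Myom2 probe set at 0.03, Csrp3 at 0.11 and Nebl 1439897_at at -0.20. On the same array the median deviation of the cell cycle list from its 9-array mean was -0.18, against 1.52 and 2.01 on day 10 replicates 1 and 2. That of the cardiomyocyte identity list was 0.03, against -0.01 and 0.08. That of the endothelial list was 0.82, against -0.42 and 0.12. Without it, Myoz2, Tcap and Nebl 1439897_at differed by 3.24, 1.89 and -2.52 between day 30 and day 10 and were still called (limma adjusted p = 0.0017, 0.00087 and 0.0018), and the brightest Ttn and Nebl probe sets differed by 0.34 and -0.18 and were still not called (limma adjusted p = 0.21 and 0.67). The part of the cell cycle and endothelial differences in these signals was not tested.

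**Figure D4:**
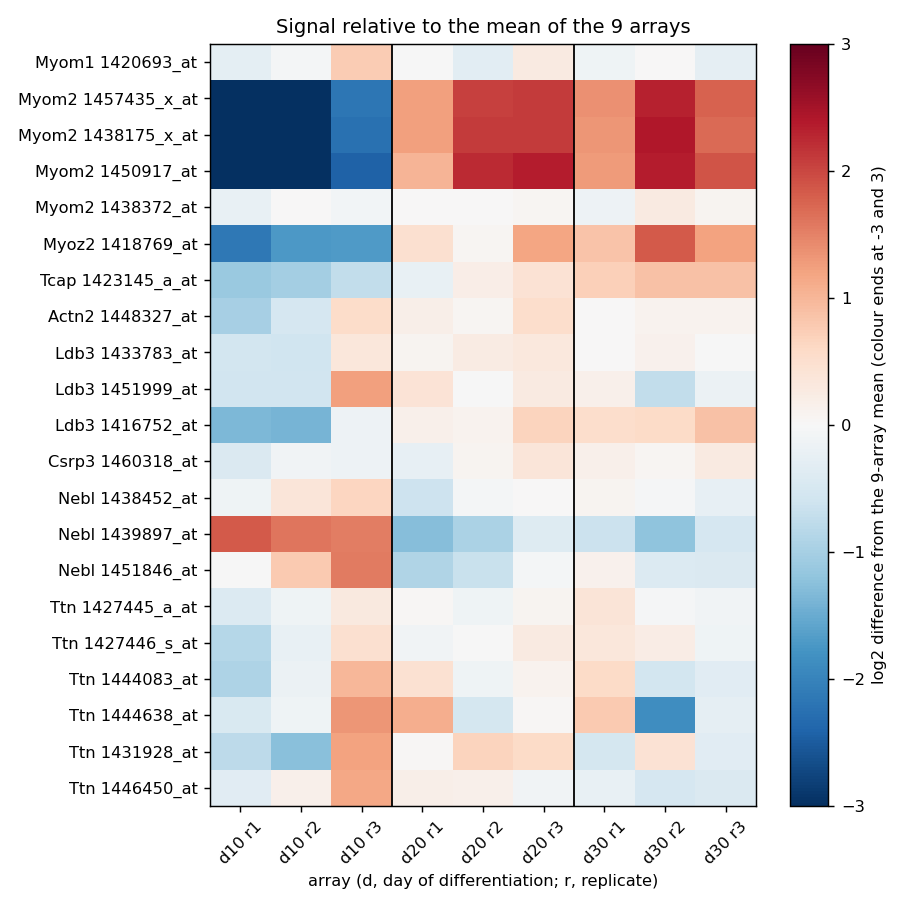
Log2 signal of each of the 21 probe sets on each of the 9 arrays relative to that probe set's mean over them, red above and blue below, with the colour ending at -3 and 3. The d10 r3 column is redder or less blue than the columns to its left in 18 of the 21 rows, and the blue day 10 cells of Myom2, Myoz2 and Tcap give way to red by day 20 or day 30.

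RNA signals of other Z-disc genes moved in both directions. Of 32 further Z-disc genes, 31 were measured, and at day 30 relative to day 10 there were 5 that rose and 6 that fell, with a median of -0.02, where 10.3% of all genes rose and 8.91% fell. Mypn, for myopalladin, a Z-disc scaffold, rose by 2.70 (SE 0.34, limma adjusted p = 0.0022), with means of 5.34, 8.12 and 8.04 at days 10, 20 and 30. Cavin4, a protein of muscle caveolae, rose by 3.27 (limma adjusted p = 0.0047). Pdlim1 and Pdlim3, PDZ and LIM proteins that bind alpha-actinin, fell by 0.99 and 1.04 (limma adjusted p = 0.014 and 0.016). At day 20 relative to day 10, 2 rose and 2 fell, where 6.31% of all genes rose and 5.3% fell, and at day 30 relative to day 20, 0 were called. Without day 10 replicate 3, 4 rose and 5 fell at day 30 relative to day 10, where 12.5% of all genes rose and 13.3% fell.

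Of 11 further M-band genes, 9 were measured. At day 30 relative to day 10, 2 rose and 0 fell, with a median of 0.42. Of all genes 10.3% rose and 8.91% fell. Ckm, muscle creatine kinase, part of which sits at the M-band, averaged 5.34, 10.78 and 11.40 at days 10, 20 and 30, and the day 30 rise of 6.05 had a limma adjusted p of 5.5e-05. Its rise at day 20 was 5.44, beside 5.39 for Myom2. Cmya5, for myospryn, rose by 2.82 (limma adjusted p = 0.0045). Fhl2, a LIM protein found at both structures, differed by 1.91 (limma adjusted p = 0.074), and Myom3, the remaining myomesin gene, read 4.06 to 4.57 on all arrays. The same 2 genes rose without day 10 replicate 3, where 12.5% of all genes rose.

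Of 17 thick and thin filament genes, 2 rose and 0 fell at day 30 relative to day 10, with a median of 0.12, where 10.3% of all genes rose. They were Tnni3, cardiac troponin I, at 2.85 (limma adjusted p = 0.0012) and Lmod2, a leiomodin of the thin filament ends, at 2.66 (limma adjusted p = 0.0046). Tpm1 differed by 0.31 (limma adjusted p = 0.073) and Myl2, the ventricular light chain, by 1.49 (limma adjusted p = 0.18). Without day 10 replicate 3, 4 rose, with Myh6 and Myh7 added, where 12.5% of all genes rose.

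**Figure D5:**
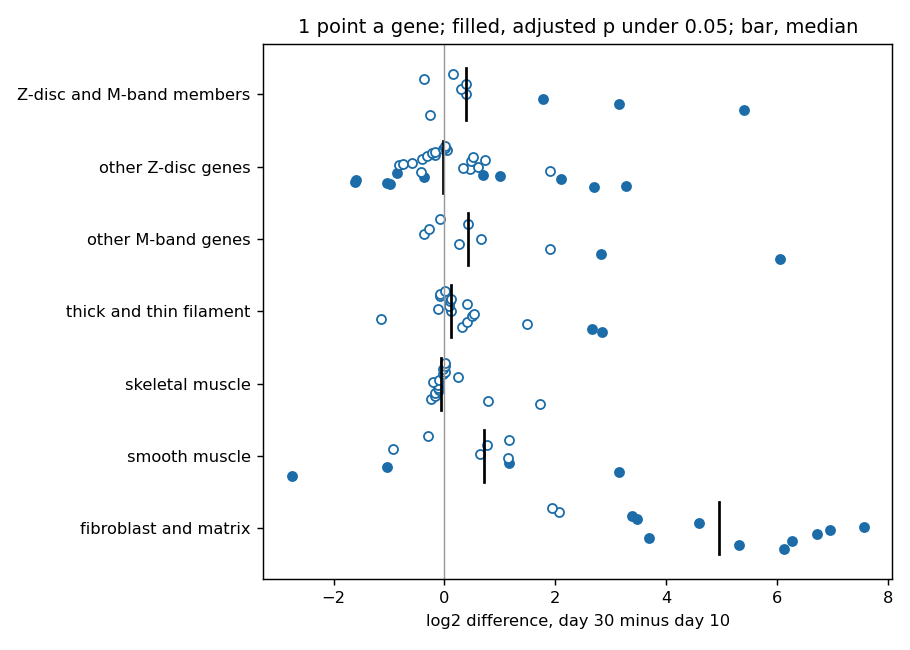
Log2 difference, day 30 minus day 10 (horizontal axis), of the brightest probe set of each gene in each list, filled at a limma adjusted p under 0.05, with a bar at the list's median. The 9 genes described here have a median of 0.39 and 3 filled points, the other M-band list ends with Ckm at 6.05, and the fibroblast and matrix list lies furthest to the right with a median of 4.95.

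For each of the 9 genes, the genes with the most similar profile over the 9 arrays were found by the root mean square difference of the centred log2 signals, among 9087 other genes whose mean signal was above the median of all genes. For Myom2, whose own root mean square deviation was 2.64, they were Bgn and Egln3 at 0.65 each. Bgn, for the matrix proteoglycan biglycan, belongs to the fibroblast and matrix list and rose by 5.31 at day 30 relative to day 10. For Myoz2, with a deviation of 1.40, they were Kcnq1, a potassium channel gene, at 0.32 and Rarres2 at 0.39. For Tcap, with 0.76, they were Slc48a1 at 0.17 and Pam at 0.19. The other 6 genes had deviations of 0.22 to 0.46 and nearest profiles at 0.05 to 0.14. The nearest to Actn2 was Cyba at 0.12 and to Nebl it was Smyd1, of the M-band list, at 0.12. The nearest to Ldb3 was Zfp839 at 0.05, and to Csrp3 it was Znrd1as at 0.07. All 9 arrays share a cell line and a selection, so such a likeness is a description of these arrays.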

How the data were processed

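Each array has a single log2 signal for each probe set, as deposited by the authors. Per the labels' protocols, total RNA was isolated with TRIzol and turned into biotinylated product with a 3′ IVT kit, so a probe set reads a short stretch of a transcript. Not given in the sources used here are the normalization, the logarithm's base and a genome build. Base 2 was inferred from the range of 2.77 to 14.52, and the array medians ran from 5.48 to 5.56, so the values were used as deposited. No background or detection value was used, so a dim probe set is described by its rank among all, and the number of arrays limits the precision.

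Of the 45037 probe sets that are not controls, 34945 had 1 symbol in the platform annotation, 932 several and 9160 none. All 9 genes described were found by Entrez identifier in RefSeq on GRCm38.p6. In limma 3.58.1 (R 4.3.3), lmFit and eBayes estimated the 3 day means jointly from the 9 arrays, leaving 6 residual degrees of freedom. Tests were two-sided with the Benjamini-Hochberg adjustment over all probe sets, and folds are 2 to the power of the log2 difference. On simulated data for day 30 minus day 10 over 45037 probe sets, 56 of 100 2-fold and 93 of 100 4-fold changes were recovered, with 13 false calls among 162. Pair differences were tested by exact permutation in Python 3.11.15.

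The 9 genes and all gene lists were chosen with earlier results of these data known. For the lists, the named genes were Mypn, Cavin4, Pdlim1 and Pdlim3 (Z-disc), Ckm, Cmya5, Fhl2 and Myom3 (M-band) and Tnni3, Lmod2, Tpm1 and Myl2 (filaments), in each list the 4 that the stated rule gave, by adjusted p at day 30 relative to day 10. Deviations from the day means of same-numbered arrays correlated at 0.188, 0.505 and 0.349 between days 30 and 20, and at -0.22 to 0.152 with day 10. Differently numbered arrays were not compared in this way. Whether the numbers pair arrays across days is therefore not known. Alternatives changed the normalization, filter, probe set rule, weights, block and arrays.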

Additional observations from a re-analysis of the deposited data

How the results depend on the processing

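With 3 arrays a day, a change under 4-fold could be missed, as 56 of 100 simulated 2-fold changes were recovered for day 30 minus day 10. The simulation changed only 100 probe sets at each fold, where 6813 were called in the data, and held no outlying array. Its recovery may therefore differ from that in these data. The rises of the 3 bright Myom2 probe sets, Myoz2 and Tcap and the fall of Nebl 1439897_at passed the threshold under every alternative run, with day 30 minus day 10 at 4.81 to 6.18, 2.89 to 3.38, 1.70 to 1.89 and -2.59 to -2.23, and Ldb3 1416752_at under all but 1 (1.41 to 2.04). The mean of all 4 Myom2 probe sets, the dim one included, gave 4.14 and also passed. Of 1056 alternative values of 63 probe set differences, 987 kept their direction and side of the threshold, 22 newly passed, 1 no longer passed and 46 changed sign, none of a called difference.

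Of the 21 probe sets, 6 were called at day 20 and 7 at day 30 relative to day 10, and 7 over all days. With 1 probe set a gene there were 3, 3 and 3 of 9 genes, with the mean of a gene's probe sets 4 at day 30 and 4 over all days, the number of items tested being smaller. Array weights, which favour arrays close to the model, gave 11 at day 20 and 4 for the later minus the earlier change, where 0 were called as the analysis stands, and the filter on signals above the median gave 1 (Nebl 1439897_at). Leaving out 1 array gave 6 to 10 at day 20, 6 to 9 at day 30, 6 to 10 over all days and 0 to 6 for the later minus the earlier change, the high end without day 10 replicate 3 each time. The day 30 minus day 20 count was 0 throughout. Among all probe sets, the shares called without 1 array were 3.17% to 18.9% at day 20 and 9.25% to 20.3% at day 30. They were 6.53% to 20% over all days, and the high ends were again without day 10 replicate 3. Array weights called 24.2% of all at day 20 and 6.17% for the later minus the earlier change. With 1 probe set a gene, 14%, 21.1% and 17.5% of all genes were called at day 20, day 30 and over all days. Of the 5 gene pairs, 1 passed, and 1 to 3 without 1 array. Over all probe sets, the calls for the first step (4062), the second step (61), the whole span (6813) and the later minus the earlier change (60) became 10899, 279, 11501 and 2780 with array weights, 2105, 5 and 4318 with only the 2 days compared, and 152 for the last with the filter. Other causes were not tested.

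With the replicate number as a block, 7 of the probe sets were called in the first step, 0 in the second, 7 over the whole span, 0 for the later minus the earlier change and 7 over all days, and over all probe sets the day 30 minus day 20 calls dropped to 2. With the block, 8.52% of all probe sets were called in the first step, 14.3% over the whole span and 10.5% over all days. Blocked, over 36 arrangements, 0 pairs passed and the lowest adjusted p was 0.14. A single pair cannot go below that value in this setting, so the count of 0 does not decide whether a pair changed. The 1 probe set newly called in the first step was Ldb3 1416752_at (adjusted p = 0.019), and no call of the 21 at any step was lost.

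The sign changes were in uncalled differences. At day 20 minus day 10, array weights gave 0.03 for Myom1 and 0.17 for Ttn 1444638_at, and leaving out 1 array gave -0.37 to 0.15 for Myom1, -0.12 to 0.79 for Ldb3 1451999_at, and for Ttn -0.09 to 0.25 (1427445_a_at), -0.07 to 0.60 (1427446_s_at), -0.26 to 0.69 (1444083_at), -0.50 to 0.49 (1444638_at) and -0.57 to 0.17 (1446450_at). At day 30 minus day 20, array weights gave -0.12 for Myom2 1457435_x_at, median centring 0.00 for 1438175_x_at, and the mean of probe sets -0.30 for Ttn. Leaving out 1 array there gave -0.24 to 0.05 for Myom1, for Myom2 -0.26 to 0.25 (1457435_x_at), -0.30 to 0.24 (1438175_x_at), -0.46 to 0.25 (1450917_at) and -0.05 to 0.16 (1438372_at), -0.05 to 0.25 for Csrp3, -0.04 to 0.28 and -0.12 to 0.33 for Nebl 1438452_at and 1439897_at, and -0.06 to 0.18, -0.01 to 0.22 and -1.26 to 0.06 for Ttn 1427445_a_at, 1427446_s_at and 1444638_at. At day 30 minus day 10, array weights gave 0.23 for Ldb3 1451999_at and 0.11 for Ttn 1444083_at, and the mean of probe sets gave -0.14 for Ttn and -0.84 for Nebl minus Neb. Leaving out 1 array gave -0.47 to 0.05 for Myom1, -0.59 to 0.31 for Ldb3 1451999_at, -0.00 to 0.34, -0.52 to 0.43, -1.31 to 0.01 and -0.35 to 0.89 for Ttn 1427445_a_at, 1444083_at, 1444638_at and 1431928_at, and -0.27 to 0.32 for Nebl minus Neb.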
